A study of Mus musculus with 2 samples.

Results

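Cell cycle and DNA replication genes were followed in cultured mouse macrophages with and without the gene Ninj1, which encodes a cell-surface protein. The members were 38 named genes of S phase, mitosis and G1 control, taken by symbol from the 17270 named genes of the deposited table. They fell into 11 S-phase genes, 16 mitotic genes and 11 cyclin, kinase and transcription genes that act in G1 and at the entry into S phase. All 38 had a row, and all 38 had at least 20 reads in a column and entered the test. The S-phase and mitotic genes are described apart.

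Both groups were macrophages grown from marrow of mice aged 6 weeks, in culture with the growth factor M-CSF for 7 days. Both then received lipopolysaccharide (500 ng/ml) together with IFNγ, an interferon (20 ng/ml), which gives classically activated macrophages, so the wild-type control carried the same treatment as the knockout. The wild-type group was Ninj1+/+ and the knockout group Ninj1-/-, and the labels name no Cre driver and do not say which part of the gene was deleted. Each genotype was registered as 1 sample, and the table held 2 columns per genotype, called wild-type columns 1 and 2 and knockout columns 1 and 2 here. The labels do not say if these columns are separate mice, cultures or libraries, so p-values measure only the spread between columns, which may be technical.

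A dividing cell licenses its replication origins by loading the MCM helicase, copies its DNA with polymerases clamped by PCNA, and then separates its chromosomes under the control of cyclin B with CDK1. The D-type cyclins carry growth-factor signals to CDK4 and CDK6, which inactivate the retinoblastoma protein and release E2F transcription factors onto S-phase promoters. Macrophages divide in response to M-CSF, which induces D cyclins, and leave the cycle when they are activated by lipopolysaccharide or interferon-gamma. In dividing cells the genes of S phase are known to be read through E2F sites, and those of mitosis through CHR elements and CCAAT boxes.

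These words were counted in the promoters of the members, by role. RefSeq promoter sequences on GRCm38.p6 matched 30 of the 38 members, with 33 promoters among them, and the 250 bases before each start were searched on both strands. Ccnd1, Ccnd2, Ccna2, Ccne2, Mcm4, Aurkb, Kif20a and Rb1 were not matched. Any of the E2F words TTTCCCGC, TTTGGCGC, TTTCGCGC and TTTGCCGC occurred in 4 of 11 S-phase promoters (36.4%), 1 of 13 mitotic promoters (7.69%) and 1.86% of all 32851 promoters. The CHR word TTTGAA occurred in 6 of 13 mitotic promoters (46.2%), 1 of 11 S-phase promoters (9.09%) and 16.0% of all promoters. The word CCAAT occurred in 12 of 13 mitotic promoters (92.3%), 9 of 11 S-phase promoters (81.8%) and 33.8% of all. Among the 9 promoters of G1 control genes, E2F words stood in 1, the CHR word in 1 and CCAAT in 4. A match describes these letters and does not show that a factor binds.

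Promoters of 3 members are given, 5′ to 3′ on the gene's strand and ending at the base before the RefSeq start, with the matched words in capitals. Mki67 is shown because it was the mitotic member that passed the test below, Mcm5 as an S-phase promoter with E2F words, and Cdk1 because it held all 3 kinds of word. They lie at chr7:135716380-135716629 (minus strand), chr8:75109259-75109508 (plus strand) and chr10:69352913-69353162 (minus strand) on GRCm38.p6.
Mki67: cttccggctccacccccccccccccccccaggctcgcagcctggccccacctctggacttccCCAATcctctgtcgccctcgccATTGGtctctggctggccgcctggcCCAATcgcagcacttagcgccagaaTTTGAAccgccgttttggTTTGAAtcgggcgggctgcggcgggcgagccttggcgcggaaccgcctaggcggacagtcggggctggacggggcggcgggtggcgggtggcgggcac
Mcm5: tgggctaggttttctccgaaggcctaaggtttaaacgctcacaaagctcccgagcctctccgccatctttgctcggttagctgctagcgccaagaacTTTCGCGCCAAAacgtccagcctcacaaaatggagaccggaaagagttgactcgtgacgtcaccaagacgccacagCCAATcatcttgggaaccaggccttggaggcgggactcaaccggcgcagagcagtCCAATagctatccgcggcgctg
Cdk1: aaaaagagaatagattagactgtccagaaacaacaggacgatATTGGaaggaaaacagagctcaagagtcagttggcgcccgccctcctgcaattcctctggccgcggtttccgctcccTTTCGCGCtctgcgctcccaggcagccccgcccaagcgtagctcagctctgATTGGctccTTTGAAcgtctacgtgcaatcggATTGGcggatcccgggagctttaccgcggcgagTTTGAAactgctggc
The Mki67 promoter held the CHR word at 116 and 98 bases before the start and CCAAT at 188, 166 and 141 bases before it, with no E2F word. In Mcm5 the E2F words began 153 and 149 bases before the start and overlap each other on opposite strands, and the window held no CHR word. Cdk1 had an E2F word at 131 bases, CHR words at 71 and 15 bases and CCAAT at 208, 80 and 48 bases before its start.

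The genotype and the cell type were checked before the members were compared. Ninj1 stood at 28850 and 31158 normalized counts in the wild-type columns and at 3519 and 4086 in the knockout columns, which is 12.7% of wild type on average. All 8 macrophage markers listed were above 0 in every column, with Adgre1 (F4/80) between 234274 and 242636 normalized counts. Of these 8 markers 2 (25%) fell in the knockout by limma, none rose and 6 did not pass. Over all genes tested, 1.24% were called lower. Itgam, which encodes the integrin CD11b, fell by 0.37 on the log2 scale (limma adjusted p = 0.0419), and Mertk, a receptor for the uptake of dead cells, fell by 0.48 (adjusted p = 0.0285). Both were called by edgeR and DESeq2 too, and both lost the limma call without wild-type column 1 (adjusted p = 0.189 and 0.187), knockout column 1 (0.448 and 0.0645) or knockout column 2 (0.0508 and 0.119). All 8 activation markers listed (Nos2, Tnf, Il1b, Il6, Cxcl9, Cxcl10, Irf1 and Cd86) were above 0 in every column. By limma 1 of these 8 (12.5%) rose, against 1.67% of all genes, none fell and 7 did not pass. Their median log2 ratio was 0.16, with 7 ratios above 0 and 1 below. Columns of a genotype differed: the chi-square of their counts, divided by the number of genes, was 19.4 for wild type and 12.7 for the knockout. Genes with many reads can dominate this value, so it does not settle if the columns come from one library. Depth was 46798381 to 62684262 reads in named genes. In bulk RNA, fewer cycling cells and less of a transcript per cycling cell cannot be told apart.

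By limma, 1 of the 38 members rose in the knockout, 1 fell and 36 did not pass, at an adjusted p below 0.05. Ccnd1, which encodes cyclin D1, rose 1.23-fold, and Mki67, which encodes the proliferation antigen of the mitotic chromosome surface, fell, with wild type 1.44-fold above the knockout. Over all 12872 genes tested, 2.91% were called, 1.67% higher and 1.24% lower, and 2 of 38 members is 5.26%. EdgeR called 1 of the 38, Mki67, where 2.94% of all genes were called. DESeq2 called Mki67 and Ccnd1, where 6.38% of the genes it adjusted were called, and it left 18 members without an adjusted p. An unadjusted limma p under 0.05 was found for 5 members, which is 13.2% of them, against 19.8% of all genes. Columns of the genotypes did not overlap for 8 members on the higher side and 9 on the lower side, where 25.5% of all genes had columns that did not overlap on the higher side, 25.6% on the lower side and 51.1% in all. The members' median log2 ratio, knockout minus wild type, was 0.00045, with 19 ratios above 0 and 19 below, and that of all genes was -0.0034.

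**Figure D1:**
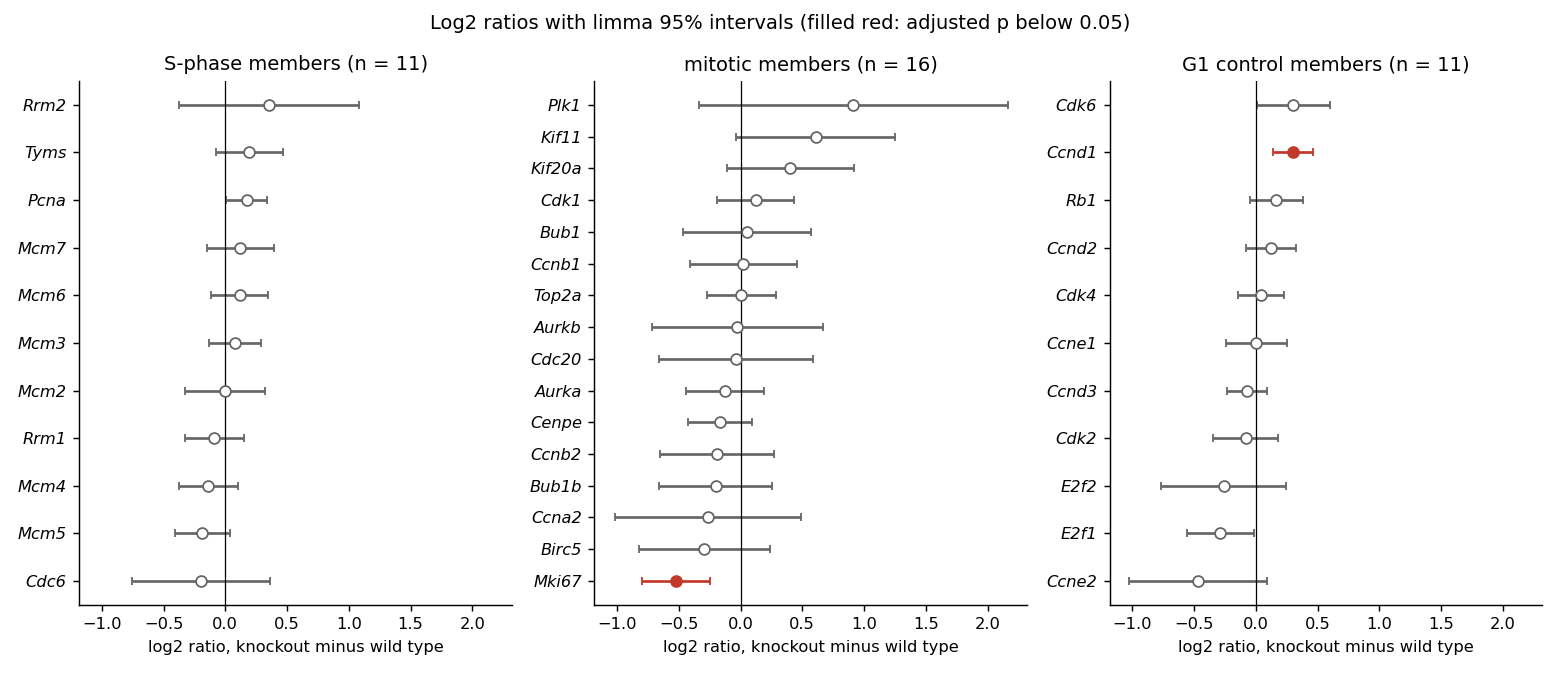
Log2 ratios of the 38 members, knockout minus wild type on log2(normalized count + 1), in 3 panels by role, with bars for limma's 95% intervals from 2 columns per genotype. Mki67 at -0.52 and Ccnd1 at 0.30 are the 2 filled points with an adjusted p below 0.05, and Plk1 at 0.91 has the widest interval, from -0.34 to 2.16.

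None of the 11 S-phase genes was called. Limma's smallest adjusted p among them was 0.237, and 1 (9.09%) had an unadjusted limma p under 0.05, against 19.8% of all genes. Neither edgeR nor DESeq2 called any, and DESeq2 gave Mcm2, Cdc6 and Rrm2 no adjusted p. Their median log2 ratio was 0.08, with 6 ratios above 0 and 5 below, and the ratios ran from -0.20 to 0.35. Leaving out wild-type column 2 gave a call for Pcna, described next, and leaving out wild-type column 1 took the median to -0.03.

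Pcna, the sliding clamp of the replicative polymerases, was by far the most abundant S-phase member, at 7008 normalized counts per kb of transcript over the 4 columns. It stood at 9483 and 10518 normalized counts in wild type and at 11923 and 10627 in the knockout. Both knockout columns lay above both wild-type columns, with the second of each close together. The log2 ratio was 0.17 (95% interval 0.01 to 0.34) and limma's adjusted p was 0.237. Without wild-type column 2 the ratio was 0.25 and the adjusted p 0.0435, and after removal of the GC and length trend they were 0.07 and 0.618. The annotation lists 2 processed copies, Pcna-ps1 and Pcna-ps2, whose reads the counting could have split from those of Pcna, so its values are uncertain.

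The 6 subunits of the MCM2-7 helicase, which unwinds DNA at the fork, had log2 ratios on both sides of 0. Mcm5 stood at 1522 and 1692 normalized counts in wild type and 1512 and 1315 in the knockout, a log2 ratio of -0.19 (95% interval -0.41 to 0.03, limma adjusted p = 0.342). Its knockout columns lay below its wild-type columns, with knockout column 1 next to wild-type column 1. Mcm3 stood at 1235 and 1363 in wild type and 1397 and 1343 in the knockout, and its groups overlapped. Mcm7 stood at 612 and 576 in wild type and 667 and 624 in the knockout, without overlap, and its log2 ratio was 0.12 (limma adjusted p = 0.641). The log2 ratios of Mcm6, Mcm2 and Mcm4 were 0.12, -0.00 and -0.14, and their groups overlapped. Per kb of transcript, the helicase subunits spread from 133 normalized counts for Mcm2 to 447 for Mcm5, although they are known to assemble in equal numbers. Exons of Mcm7 overlap those of Ap4m1 and Cops6 on the other strand, and whether counting used the strand is not given in the sources used here.

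No gene of nucleotide supply or origin loading passed the test, and Rrm2 and Cdc6 had the widest intervals of the S-phase members. Tyms, which makes thymidylate for DNA, stood at 600 and 706 normalized counts in wild type and 748 and 743 in the knockout, with both knockout columns higher (log2 ratio 0.20, limma adjusted p = 0.421). Tyms has an annotated processed copy, Tyms-ps, so its values are uncertain in the same way as those of Pcna. Rrm2, the S-phase subunit of ribonucleotide reductase, had the largest S-phase ratio, at 60.0 and 112 normalized counts in wild type and 121 and 90.7 in the knockout. Its groups overlapped, the log2 ratio of 0.35 had a 95% interval of -0.38 to 1.08, and without wild-type column 1 the ratio was -0.09. Rrm1, the large subunit, which cells keep through the cycle, had a log2 ratio of -0.09 and lay at 269 normalized counts per kb against 43.7 for Rrm2. Cdc6, which loads the helicase onto origins, stood at 141 and 139 normalized counts in wild type and 102 and 145 in the knockout, with overlapping groups and a log2 ratio of -0.20 (adjusted p = 0.718).

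Among the 16 mitotic genes Mki67 fell, none rose and 15 did not pass limma's test. DESeq2 and edgeR each called Mki67 as well, but of the 16 DESeq2 gave an adjusted p only to Mki67, Top2a and Cenpe. The median log2 ratio was -0.03, with 7 ratios above 0 and 9 below, and the 95% intervals reached a median of 0.49 to either side, against 0.24 for the S-phase genes. The levels were low: the summed normalized counts per kb of the 16 mitotic genes were 1362 and 1277 in wild type and 1266 and 1195 in the knockout. Over the 11 S-phase genes the same sum was 8739 and 9546 in wild type and 10573 and 9405 in the knockout. Most of the S-phase sum, and of its gap to the mitotic sum, came from Pcna, which averaged 7008 per kb over all columns. Mcm5, the next highest S-phase member, averaged 447 per kb.

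**Figure D2:**
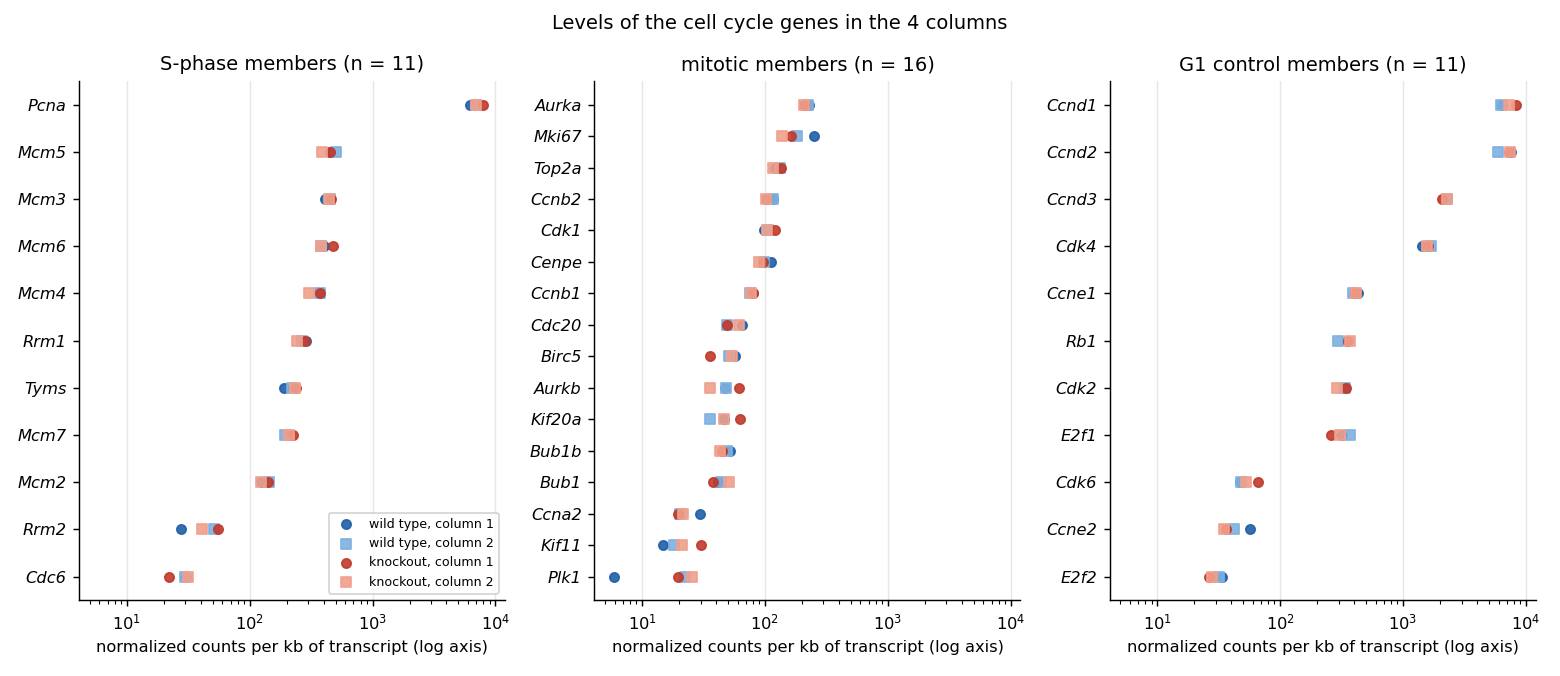
Normalized counts per kb of the longest annotated basic transcript on a log axis, for each member in the 2 wild-type columns (blue) and the 2 knockout columns (red), in 3 panels by role. Ccnd1, Ccnd2 and Pcna average 7098, 7076 and 7008 per kb, whereas the highest mitotic average is 217 per kb, of Aurka.

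Mki67 (Entrez 17345; mm10 chromosome 7, 135689784 to 135716361) stood at 2505 and 1854 normalized counts in wild type and 1629 and 1378 in the knockout. The group means were 2180 ± 460 and 1504 ± 177 (SD, n = 2 columns each). Both knockout columns lay below both wild-type columns, and wild-type column 2 lay closer to the knockout columns than to wild-type column 1. The log2 ratio was -0.52 (95% interval -0.80 to -0.25, limma adjusted p = 0.0424). Leaving out wild-type column 1 gave a log2 ratio of -0.31, and the call was lost there and without either knockout column. Without knockout column 1 the adjusted p was 0.058, without knockout column 2 it was 0.198, and without wild-type column 2 it was 0.00019 at a ratio of -0.74. After each column's trend with GC and length was removed, the ratio was -0.41 and the adjusted p 0.0537. The Mki67 transcript is 10061 bases long, the longest of the mitotic members.

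Other genes of late S phase and mitosis did not pass the test. Top2a, the topoisomerase that untangles sister chromatids, stood at 626 and 687 normalized counts in wild type and 712 and 611 in the knockout, with overlapping groups (log2 ratio 0.01, 95% interval -0.27 to 0.29). The count of Mki67 relative to that of Top2a was 4.0 and 2.70 in the wild-type columns and 2.29 and 2.26 in the knockout columns. Cdk1, the kinase that drives entry into mitosis, had a log2 ratio of 0.12 and its partner cyclins Ccnb1 and Ccnb2 of 0.02 and -0.19. Ccnb2 stood at 177 and 180 in wild type and 156 and 156 in the knockout, so its groups did not overlap, but the limma adjusted p was 0.669. Ccna2, the cyclin of S phase and G2, lay between 58.0 and 87.6 normalized counts in all columns with overlapping groups. Ccnb1 and Ccnb2 have annotated processed copies, and exons of Ccna2 overlap Exosc9 on the other strand.

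Kinases and checkpoint proteins of mitosis likewise did not pass. Aurka, the centrosomal Aurora kinase, was the most abundant mitotic member per kb, at 217 normalized counts per kb. It stood at 433 and 428 normalized counts in wild type and 393 and 396 in the knockout, and the groups did not overlap (log2 ratio -0.13, limma adjusted p = 0.676). Plk1, the polo-like kinase of spindle assembly, had the largest ratio of any member, at 13.0 and 49.5 normalized counts in wild type and 42.9 and 55.9 in the knockout. Wild-type column 1 alone lay apart, the groups overlapped, and without that column the log2 ratio of 0.91 became -0.02. The chromosomal Aurora kinase Aurkb and its complex partner Birc5 (survivin) had log2 ratios of -0.03 and -0.29. Bub1b, of the spindle checkpoint, stood at 190 and 181 normalized counts in wild type and 164 and 159 in the knockout, without overlap (log2 ratio -0.20, adjusted p = 0.646). Bub1, of the same checkpoint, and Cdc20, which activates the anaphase-promoting complex, had overlapping groups and log2 ratios of 0.05 and -0.04.

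The motor proteins were split in sign. Kif11, the kinesin that pushes spindle poles apart, stood at 71.4 and 87.7 normalized counts in wild type and 145 and 101 in the knockout. Both knockout columns were higher (log2 ratio 0.61, 95% interval -0.03 to 1.25, limma adjusted p = 0.279). Kif20a, a kinesin of cytokinesis, stood at 172.0 and 131.5 in wild type and 230.7 and 172.3 in the knockout. Its groups did not overlap, but knockout column 2 and wild-type column 1 nearly met (log2 ratio 0.40, adjusted p = 0.370), and 29.3% of its exon bases are shared with Cdc23 on the other strand. Cenpe, the kinetochore motor, stood at 884 and 778 normalized counts in wild type and 769 and 710 in the knockout, without overlap and with a log2 ratio of -0.17 (adjusted p = 0.482).

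**Figure D3:**
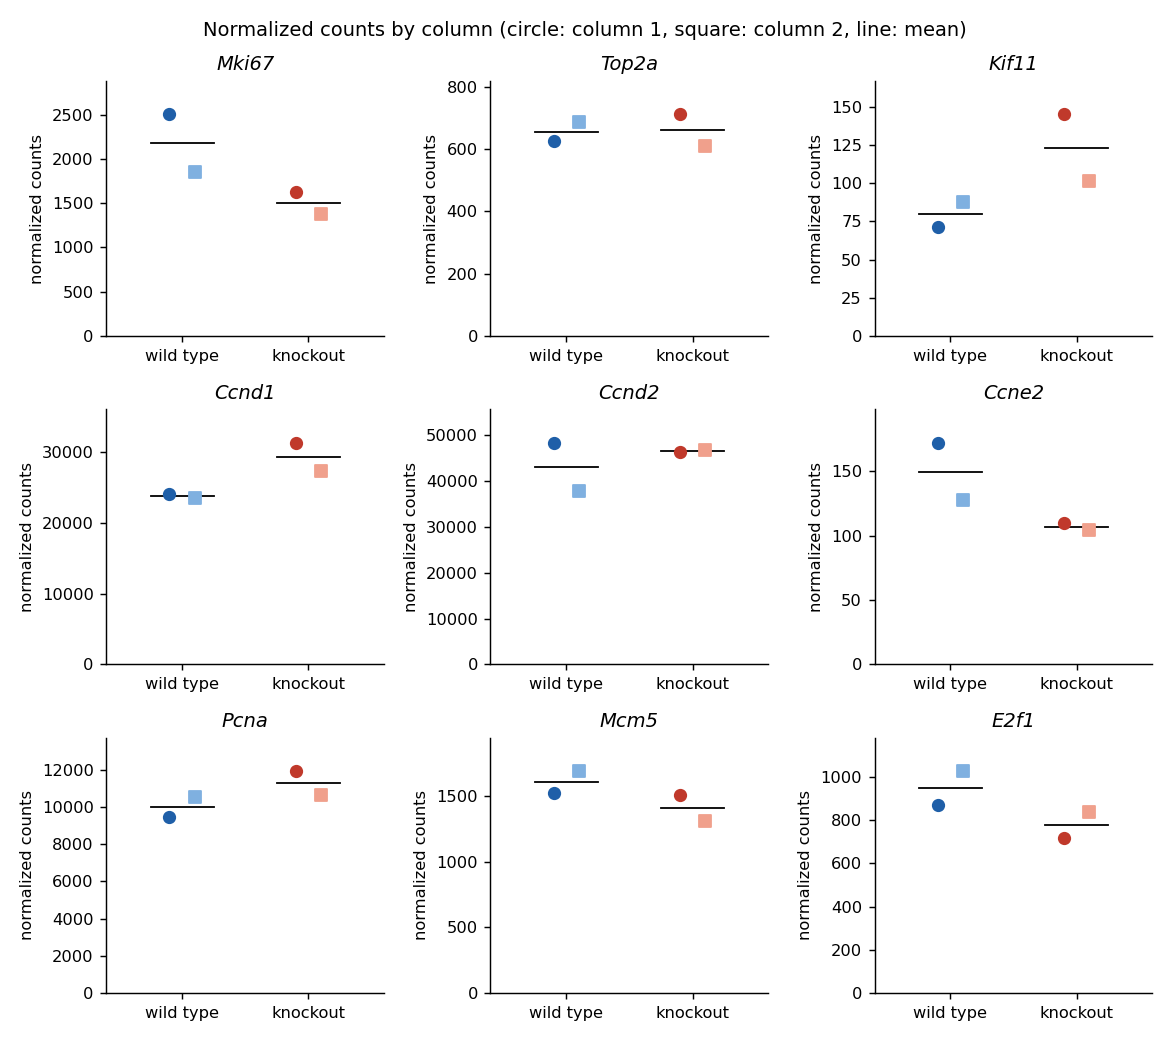
Normalized counts of 9 members in each column, each panel on its own axis from 0, with circles for column 1, squares for column 2 and a line at the mean of each genotype. Mki67 falls from 2505 and 1854 to 1629 and 1378, Ccnd1 goes from 24064 and 23462 to 31300 and 27360, and the Top2a columns overlap.

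Ccnd1 rose among the 11 G1 control genes and the other 10 did not pass limma's test. The median log2 ratio was 0.00, with 6 ratios above 0 and 5 below. DESeq2 called Ccnd1 too and gave Ccne2 and E2f2 no adjusted p, whereas edgeR called none of the 11, with an adjusted p for Ccnd1 of 0.0509. An unadjusted limma p under 0.05 was found for 3 of the 11 (27.3%, against 19.8% of all genes), which were Ccnd1, Cdk6 and E2f1.

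The D cyclins, the growth-factor-induced activators of CDK4 and CDK6, were the most abundant cell cycle members beside Pcna. Ccnd1 and Ccnd2 had 7098 and 7076 normalized counts per kb over the 4 columns, and Ccnd3 had 2218. Ccnd1 (Entrez 12443; mm10 chromosome 7, 144929931 to 144939925) stood at 24064 and 23462 normalized counts in wild type and 31300 and 27360 in the knockout. The means were 23763 ± 426 and 29330 ± 2786 (SD, n = 2 columns each), and both knockout columns lay above both wild-type columns. The log2 ratio was 0.30 (95% interval 0.14 to 0.46, limma adjusted p = 0.0479). Without wild-type column 1, knockout column 1 or knockout column 2 the adjusted p was 0.168, 0.484 or 0.0573, with ratios of 0.32, 0.20 and 0.40. After removal of the GC and length trend the ratio was 0.38 and the adjusted p 0.0102.

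Exons of Ccnd1 share 1100 bases with a gene on the other strand that the table lists as Oraov1. Oraov1 stood at 1761 to 1959 normalized counts over the 4 columns, well under the counts of Ccnd1, and its columns overlapped between genotypes. Ccnd2 stood at 48312 and 37763 normalized counts in wild type and 46389 and 46714 in the knockout. Its groups overlapped, and wild-type column 1 was the highest and wild-type column 2 the lowest of the 4 (log2 ratio 0.12, 95% interval -0.08 to 0.33). Ccnd3 stood at 4797 and 4802 in wild type and 4355 and 4798 in the knockout, again with overlap and with a log2 ratio of -0.07, and it has an annotated processed copy, Ccnd3-ps, that makes its values uncertain. Per kb, Ccnd1 made up 39.4% and 43.2% of the 3 D cyclins in the wild-type columns and 47.1% and 43.1% in the knockout columns, so this share overlapped between genotypes.

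The partners of these cyclins gave no further call. Cdk4 had a log2 ratio of 0.04 (95% interval -0.15 to 0.23) and was the more abundant D-cyclin kinase, at 1570 normalized counts per kb against 53.5 for Cdk6. Cdk6 stood at 545 and 556 normalized counts in wild type and 758 and 609 in the knockout, with both knockout columns higher (log2 ratio 0.30, limma adjusted p = 0.243). Exons of Cdk4 share 19.7% of their bases with Tspan31 on the other strand. The cyclin E genes, which act with CDK2 at the start of S phase, differed from each other. Ccne1 had a log2 ratio of 0.00 (95% interval -0.24 to 0.25), and Ccne2 stood at 172 and 127 normalized counts in wild type and 110 and 104 in the knockout. Both knockout columns of Ccne2 were lower, with a log2 ratio of -0.46 (95% interval -1.02 to 0.09, limma adjusted p = 0.347). Exons of Ccne2 share 17.4% of their bases with Ints8 on the other strand. Cdk2 had a log2 ratio of -0.08.

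The retinoblastoma gene Rb1 and the activating E2F genes lay on opposite sides of 0. Rb1, whose protein holds E2F in check, stood at 1626 and 1389 normalized counts in wild type and 1655 and 1720 in the knockout. Both knockout columns were higher, knockout column 1 by little, and limma gave a log2 ratio of 0.17 with an adjusted p of 0.379. E2f1 stood at 871 and 1027 normalized counts in wild type and 716 and 839 in the knockout, with both knockout columns lower (log2 ratio -0.29, 95% interval -0.56 to -0.02, limma adjusted p = 0.226). E2f2 stood at 159 and 150 in wild type and 125 and 133 in the knockout, also without overlap, and its log2 ratio was -0.26 (adjusted p = 0.581). After removal of the GC and length trend the log2 ratios were -0.14 for E2f1, -0.06 for E2f2 and 0.12 for Rb1. Without wild-type column 2 the ratio of E2f1 was -0.17 and that of Rb1 0.05, and without knockout column 1 that of E2f1 was also -0.17.

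**Figure D4:**
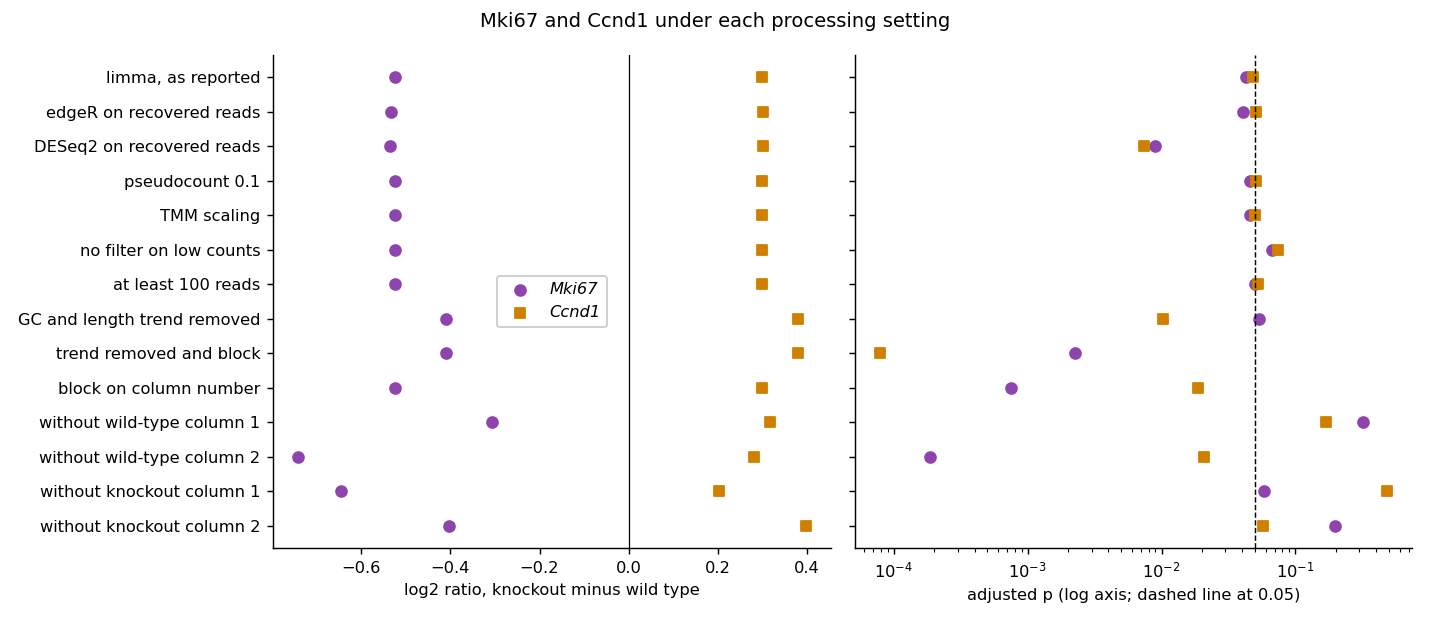
Log2 ratio, knockout minus wild type (left), and adjusted p on a log axis (right) of Mki67 (circles) and Ccnd1 (squares) under the reported limma test and 13 alternatives. Every ratio keeps its sign, from -0.74 to -0.31 for Mki67 and from 0.20 to 0.40 for Ccnd1, while several adjusted p values lie right of the dashed line at 0.05.

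Wider lists of the same machinery were chosen by function. Of 48 other replication genes none was called by limma, and their median log2 ratio was 0.03. Among them 8 (16.7%) had an unadjusted limma p under 0.05, against 19.8% of all genes. Without wild-type column 2, the log2 ratios were 0.62 for Pold2 (a polymerase delta subunit) and 0.34 for Slbp (the histone mRNA binding protein). That of Wdhd1 (a replisome adaptor) was -0.56 in the same setting. Pold2, Slbp and Wdhd1 are named for that setting alone, which leaves a lone wild-type column. Over all columns the log2 ratios of the 48 genes ran from -0.51 to 0.35, so those of Pold2 and Wdhd1 were smaller in size there. Mcm10, which helps to activate the loaded helicase, stood at 706 and 709 normalized counts in wild type and 511 and 493 in the knockout. Its groups lay well apart, and its log2 ratio of -0.49 had a limma adjusted p of 0.0513. It was the gene of this list that edgeR (adjusted p = 0.0492) and DESeq2 (adjusted p = 0.0489) called lower. Chaf1b, a chaperone subunit that places histones behind the fork, stood at 446 and 420 in wild type and 314 and 293 in the knockout (log2 ratio -0.51, limma adjusted p = 0.0945).

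Of 50 other mitotic genes that passed the filter, out of 52 with a row, none was called by limma, edgeR or DESeq2. Among the 50, 8 (16%) had an unadjusted limma p under 0.05, against 19.8% of all genes. Ccnf, an F-box cyclin of G2, had a log2 ratio of -0.33 over all 4 columns (limma adjusted p = 0.158). Without knockout column 2 its ratio was -0.58. The median log2 ratio of the 50 genes was -0.10, with 16 ratios above 0 and 34 below, beside -0.0034 over all genes. Dlgap5, a spindle assembly factor, stood at 497 and 576 normalized counts in wild type and 405 and 367 in the knockout (log2 ratio -0.47, limma adjusted p = 0.103). Ckap2l, which encodes a spindle protein, stood at 297 and 307 in wild type and 240 and 224 in the knockout, a log2 ratio of -0.38 with an adjusted p of 0.251. For both genes all knockout columns lay below all wild-type columns.

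Among 28 CDK inhibitors, pocket proteins, E2F partners and antiproliferative genes, Btg1 rose, none fell and 27 did not pass. This 1 call is 3.57% of the list, near the 2.91% of all genes that limma called. Btg1, an antiproliferative gene of resting cells, stood at 15534 and 14798 normalized counts in wild type and 19902 and 18750 in the knockout (log2 ratio 0.35, limma adjusted p = 0.0192). It was called by edgeR and DESeq2 and lost its limma call without wild-type column 1, knockout column 1 or knockout column 2, at adjusted p = 0.0663, 0.253 and 0.0591. Myc, a driver of cell growth, had a log2 ratio of 0.66 over all columns (limma adjusted p = 0.109) and of 1.03 without wild-type column 2. Cdkn2a, which encodes CDK4 and p53 pathway inhibitors, was called lower without wild-type column 2 or knockout column 2 (log2 ratios -0.63 and -0.72, and -0.47 with adjusted p = 0.132 over all columns). Cdkn1a, the CDK inhibitor p21, was named here for its level, after its values were seen. It had 36249 normalized counts per kb, above every one of the 38 members, and stood at 73613 and 74225 normalized counts in wild type and 74568 and 79182 in the knockout (log2 ratio 0.06, 95% interval -0.10 to 0.21).

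**Figure D5:**
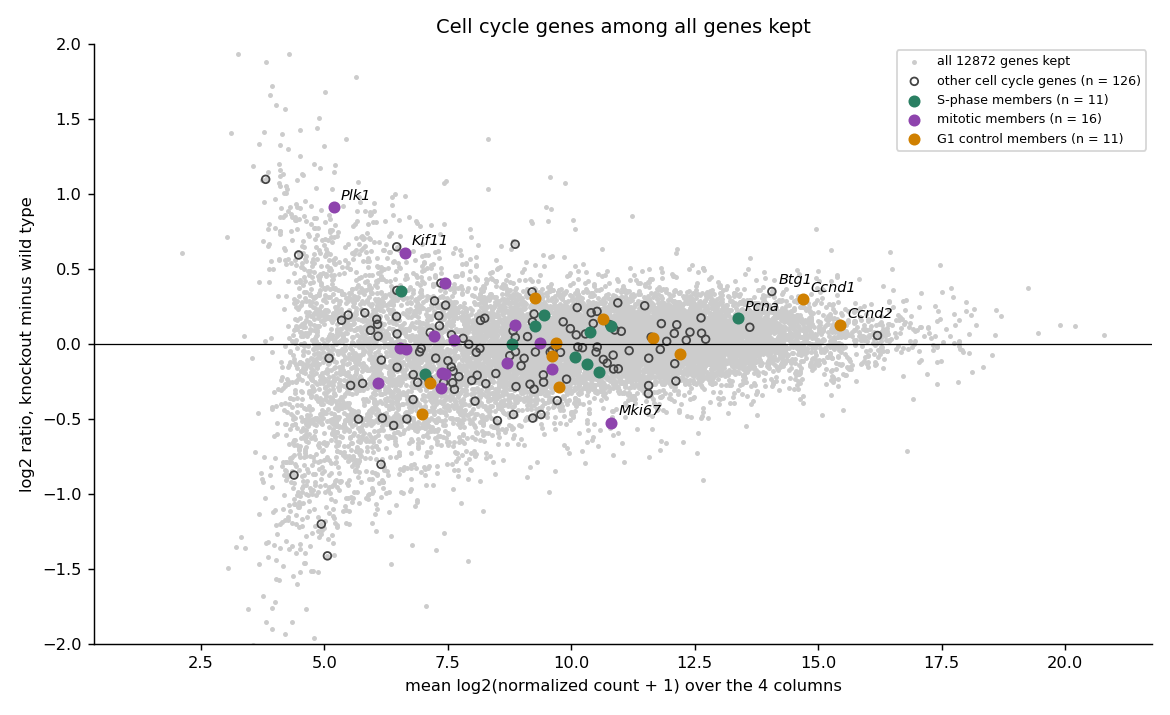
Log2 ratio, knockout minus wild type, against the mean log2(normalized count + 1) of the 4 columns for all 12872 genes kept (grey), 126 other cell cycle genes (open circles) and the 38 members (filled by role). The members lie within the grey cloud at their level, and 40 genes lie beyond the axis limits of 2 on either side.

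Markers of other cells moved with genotype in part. Over the 10 stromal markers the summed normalized counts were 725 and 816 in the wild-type columns and 459 and 369 in the knockout columns. Col1a2, Col3a1, Pdgfra, Thy1 and Cxcl12 stood at 0 in both knockout columns. Pdgfra and Thy1 were at 0 in wild-type column 1 too, and Cxcl12 in wild-type column 2. By limma 2 of the 7 tested (28.6%) were called lower, against 1.24% of all genes, and 1 of the 7 ratios lay above 0. EdgeR called 4 of the 7, where it called 2.94% of all genes, and DESeq2 called 0. Over the 7 markers of progenitors the sums were 11505 and 11667 in wild type and 9863 and 11051 in the knockout, with all 4 tested ratios below 0 and none called. Most of that sum came from Cd48, which macrophages also express, while Gata2, Flt3 and Mycn stood at 14.6 normalized counts or less in every column. Only 3 of 8 granulocyte, 3 of 9 erythroid and 6 of 8 lymphoid markers listed had a row. Those with a row summed, for each cell type, to at most 36.6 normalized counts in any column. The markers without a row could not be judged. The part of these cells in the values of Mki67 and the other members was not tested.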

How the data were processed

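The authors deposited normalized counts, a signal per gene, for mRNA libraries. The library kit was directional, as the labels' protocols state. Every value (100%) was a whole multiple of its column's step within 0.01 reads, so reads were recovered by division, 1 read being worth 1.26 to 1.62 normalized counts. Build mm10 and StringTie are named per the submitters' processing notes. Which aligner, counter and normalizing tool were used is not given in the sources used here. In each column, between 71.2% and 73.9% of low counts were even, so mates may be counted singly and depth in fragments be lower. The table had 17271 rows, of which 1 without a gene name (0.0272% to 0.0366% of reads) was left out.

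Columns without KO in their name were taken as wild type. A gene was kept if any column had 20 or more reads (12872 genes), and limma 3.58.1, its prior variance following the mean level, was run on log2(normalized count + 1), a scale that understates the change of low genes. P-values were adjusted by Benjamini-Hochberg over all of them. The fit had 2 residual degrees of freedom and a prior worth 12.2 more. The alternatives tried were edgeR 4.0.16 and DESeq2 1.42.0 on recovered reads, a pseudocount of 0.1, TMM scaling, no filter, at least 100 reads, splines on GC content and length subtracted per column, the column number as a block, and each column left out in turn. A lone column was then assumed to vary like the other genotype. Lengths, GC content and positions came from GENCODE M21 on GRCm38, the same build as mm10, using each gene's longest basic transcript, found for 88.5% of genes. Limma and edgeR were also run on simulated counts. These had the same relative spread for every gene and no GC trend, unlike the data, so they cannot show how the tests behave here. Software was R 4.3.3, Python 3.11.15, pandas 2.3.3 and matplotlib 3.10.9.

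Members and lists were chosen with earlier results of these data known. Values in every column are given for called members and, in each role, the 3 with the highest level per kb and the 3 with the largest absolute ratio, and for further members whose columns did not overlap. In the wider lists the called genes, or else the 2 largest ratios with at least 100 reads, are named. Genes of these lists called only under an alternative setting are named too.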

Additional observations from a re-analysis of the deposited data

How the results depend on the processing

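Counts of called members depended on the setting. The number called higher was 1 as reported, 0 by edgeR, with a pseudocount of 0.1, without a filter or with at least 100 reads, and 0 to 2 when a column was left out. The number called lower was 1 as reported, 0 without a filter or after removal of the GC and length trend, and 0 to 1 when a column was left out. The cause was not tested. Of the columns, only wild-type column 2 could be left out with any call kept, and Mki67, Ccnd1 and Pcna were then called, where 10.7% of all genes were. No member was called in one direction and had the opposite sign under another of the 13 alternatives. Where an alternative gave an adjusted p, ratios of uncalled members changed sign 35 times, in 18 members.

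The median log2 ratio of the S-phase members was 0.1335 after removal of the GC and length trend, with or without the replicate block, and -0.0332 to 0.1064 when a column was left out. That of the mitotic members was -0.0168 by edgeR, -0.0165 by DESeq2, -0.0597 with at least 100 reads, -0.0507 after trend removal, with or without the replicate block, and -0.1200 to -0.0237 when a column was left out. That of the G1 control members was 0.0520 with the trend removed, with or without the block, and -0.0711 to 0.0408 when a column was left out.

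Deviations of same-numbered columns from their genotype's mean had a correlation of -0.034 across 12872 genes, so these columns did not deviate together. The correlation cannot tell if they were prepared in pairs, which the labels do not say. With the replicate block, which leaves 1 residual degree of freedom, 1 member was called higher and 1 lower, as without it. The limma adjusted p was 0.0187 for Ccnd1 and 0.000753 for Mki67. Their ratios did not change, while limma's prior was worth 50.3 degrees of freedom with the block and 12.2 without it. In the wider lists the block added limma calls for Mcm10 and Ccnf (lower) and Myc (higher), at adjusted p = 0.0408, 0.0423 and 0.0234. DESeq2's filter on low counts left 18 members without an adjusted p. No alternative moved the median log2 ratio of all genes by over 0.046. Members with under 100 normalized counts had intervals too wide to show a 1.5-fold difference.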
